A study of Drosophila melanogaster with 3 samples.

Results

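The 35 genes described here were the aminoacyl-tRNA synthetase genes among 13968 protein-coding genes of the fruit fly, Drosophila melanogaster. They were taken by name: a three-letter amino acid code followed by RS, with an optional -m ending or an alpha- or beta- prefix, plus GluProRS. The naming rule uses no binding value, although this set was picked for description with earlier results of these data known. Of the 35, 20 names had no -m ending and were taken as cytoplasmic, and 15 ended in -m and were taken as mitochondrial. Sites of Su(var)3-7 had been mapped by ChIP-seq, the sequencing of DNA recovered with a precipitated chromatin protein, in whole embryos of both sexes aged 0 to 24 h. Su(var)3-7 carries zinc fingers, is known to associate with the heterochromatin protein HP1 and to sit at pericentric heterochromatin, and is named for its effect on gene silencing there. All embryos came from 1 transgenic line that stably expresses Su(var)3-7 with GFP at its C-terminal end, and the precipitation used an anti-GFP antibody, although the labels' antibody field names Su(var)3-7 itself. The data were 1 group of 3 biological replicates, numbered as in the labels, with no second genotype or stage. No untagged or mock precipitation was analysed here, so signal that the antibody gives without the fusion protein was not measured.

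Aminoacyl-tRNA synthetases join each amino acid to its own tRNA and so supply the ribosome with charged tRNA. The nucleus encodes both the enzymes that work in the cytoplasm and those imported into mitochondria. Most of these enzymes are 1 protein, but the cytoplasmic phenylalanyl enzyme is built from alpha and beta subunits, the glutamyl and prolyl activities of the cytoplasm are joined in the single protein GluProRS, and several cytoplasmic enzymes gather in a multi-synthetase complex with the AIMP scaffold proteins. Some synthetase genes are known from human to supply both compartments, the glycyl and lysyl enzymes among them. The class by name is therefore an approximation. For 12 amino acids there was a pair of genes whose names differ only by the -m ending, and 11 genes had no such partner. Those 11 include alpha-PheRS, beta-PheRS and PheRS-m, and also GluProRS, GluRS-m and ProRS-m, whose amino acids match under unlike names.

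The authors deposited 30000 relaxed regions (peaks and background) for each replicate and for the replicates pooled, and 4055 thresholded peaks, which were the strongest 4055 of the pooled list. Each region carries a signal value from the authors' caller on a scale that is not stated, with a list median of 52.9 in the pooled list and of 19.2, 25.5 and 18.2 in replicates 1, 2 and 3. A replicate's signal is therefore given as a multiple of its own list's median. On that scale the weakest of a replicate's strongest 4055 regions stood at 1.99, 2.14 and 1.92, and the weakest listed region at 0.652, 0.643 and 0.671. A gene was counted as bound where a summit lay within 500 bp of one of its start sites, and the strongest such region gave its value. Read depth is unknown, the lists hold no counts, and a strong signal in some cells of the embryo and a weaker one in all of them cannot be told apart.

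Start-site peaks were found at 10 of the 35 synthetase genes (28.6%, 95% Wilson interval 16.3% to 45.1%), where 18.4% of all protein-coding genes had one. Of the cytoplasmic genes 8 of 20 were bound (40%, interval 21.9% to 61.3%): SerRS, IleRS, GluProRS, beta-PheRS, GlnRS, ThrRS, ArgRS and AsnRS. Of the mitochondrial genes 2 of 15 were bound (13.3%, interval 3.74% to 37.9%): LeuRS-m and PheRS-m. The intervals of the whole set and of the mitochondrial class include the 18.4% of all genes, and that of the cytoplasmic class begins above it. That last reading was lost among the stronger 2027 peaks (4 of 20, 20%, interval 8.07% to 41.6%, beside 10.1%). It was also lost when pooled peaks were kept only where both replicates other than 1, or other than 3, held them among their strongest (5 of 20 each, 25%, interval 11.2% to 46.9%, beside 13.6% and 13.7% of all genes). Such settings keep fewer peaks by construction, so the loss is not read as dependence on a replicate. These intervals cover the counting of genes only, and treat genes as independent. The 18.4% is also a share over unlike promoters. Another gene started within 500 bp upstream on the opposite strand at 75% of cytoplasmic synthetase genes and at 27.3% of all genes. Over all genes, those with such a neighbour were bound in 35.2% of cases and those without in 12.1%. The cytoplasmic interval includes that 35.2%, and the part of such neighbours was not tested.

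In the replicates' own strongest 4055 regions, 11, 8 and 9 of the 35 genes were bound in replicates 1, 2 and 3. That is 31.4%, 22.9% and 25.7%, a mean of 26.7% ± 4.36 (SD, n = 3), beside 18.7%, 17.7% and 18.5% of all genes. The share of synthetase genes was above that of all genes in 3 of 3 replicates. Cytoplasmic genes were bound in 40%, 30% and 40% of cases, a mean of 36.7% ± 5.77 (SD, n = 3). Mitochondrial genes were bound in 20%, 13.3% and 6.67%, a mean of 13.3% ± 6.67 (SD, n = 3). The cytoplasmic share was higher in every replicate, and the replicates of the classes did not overlap. Each replicate reads the same 20 and 15 genes, so this shows how repeatable the shares were at these genes. It does not measure the spread between genes of a class. The difference was 20, 16.7 and 33.3 percentage points, a mean of 23.3 ± 8.82 (SD, n = 3), and an exact two-sided sign-flip permutation test over the replicates gave p = 0.25, the smallest value that 3 replicates allow. Since no outcome of that test could have been significant, it says nothing on whether the classes differ. Without replicate 3, with only thresholded peaks that the other replicates also held among their strongest, the pooled difference of 26.7 points fell to 11.7, and the bound cytoplasmic genes fell from 8 to 5. Without replicate 1 the bound synthetase genes fell from 10 to 6, the cytoplasmic ones to 5 and the mitochondrial ones from 2 to 1, and without replicate 2 the mitochondrial ones fell to 1. The all-gene share fell with them, from 18.4% to 13.6%, 13.5% and 13.7% without replicates 1, 2 and 3, where the synthetase share was 17.1%, 20% and 20%. These filters cut the list made from all 3 replicates pooled, so the counts of bound genes could not rise.

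**Figure D1:**
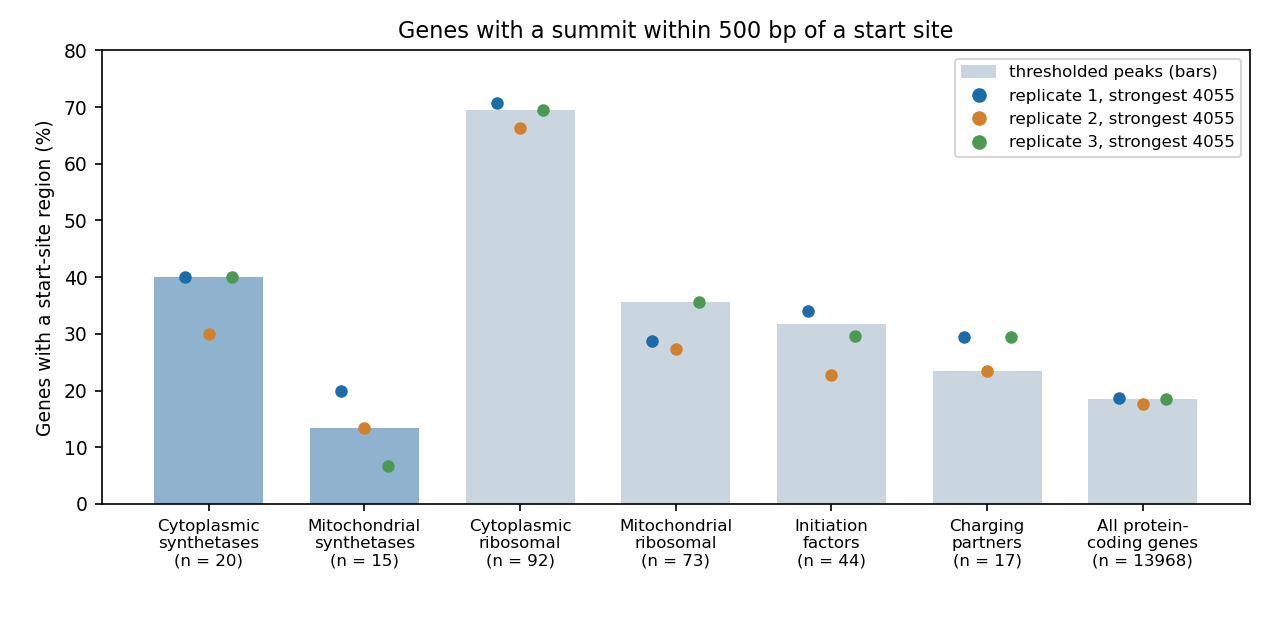
Percent of genes (vertical axis) with a start-site peak for cytoplasmic and mitochondrial synthetase genes, the comparison lists and all protein-coding genes. Bars give the pooled thresholded list and points the strongest 4055 regions of each replicate; cytoplasmic synthetases stood at 40% and mitochondrial ones at 13.3%, and cytoplasmic ribosomal protein genes at 69.6%.

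Regions of any strength were counted next. In the pooled relaxed list a region summit lay within 500 bp of a start site in 26 of 35 synthetase genes (74.3%), beside 51.9% of all genes. This held for 19 of 20 cytoplasmic genes (95%), with alpha-PheRS as the exception, and for 7 of 15 mitochondrial genes (46.7%). These counts include the thresholded genes. A relaxed region alone was present at 11 of 20 cytoplasmic genes (55%) and at 5 of 15 mitochondrial genes (33.3%). Of all 13968 protein-coding genes, 7246 had a pooled region (51.9%), 2577 of them with a thresholded peak (18.4% of all genes) and the rest with a relaxed region alone. The share of all genes with a relaxed region alone was thus close to the mitochondrial 33.3% and below the cytoplasmic 55%. In the replicates' full lists 17, 18 and 18 of the 20 cytoplasmic genes had a region (88.3% ± 2.89, SD, n = 3) and 8, 7 and 4 of the 15 mitochondrial genes (42.2% ± 13.9, SD, n = 3). All genes had one in 51.4%, 51.6% and 50.4%. The replicate differences between the classes were 31.7, 43.3 and 63.3 points, 46.1 ± 16.0 (SD, n = 3). This count by class was added after values had been seen and was given no test. Among genes with a pooled region the median signal was 88.1 for the 19 cytoplasmic genes, 86.6 for the 7 mitochondrial genes and 89.8 for the 7246 protein-coding genes with one; genes with no listed region do not enter these medians.

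The promoters of 7 synthetase genes are printed so that the bound and unbound ones can be read side by side. Each is up to 150 bases that end just before the gene's outermost start site, 5′ to 3′ on the gene's own strand, and is shorter where another annotated exon begins. They come from the RefSeq genome of Release 6, which is build dm6. Capitals mark TATCGATA, the DNA replication-related element (DRE) that the factor DREF binds, CAGCTG, a form of the E-box, GTCACACT, the core of a common fly promoter element called motif 1, and TGATGNAA, an ATF4 and C/EBP element, each on either strand. IleRS (chr3L:22288515-22288664, plus strand), ArgRS (chrX:15844146-15844295, minus strand), beta-PheRS (chr3R:24252680-24252825, minus strand) and LeuRS-m (chr3L:4825703-4825852, plus strand) were bound.
IleRS: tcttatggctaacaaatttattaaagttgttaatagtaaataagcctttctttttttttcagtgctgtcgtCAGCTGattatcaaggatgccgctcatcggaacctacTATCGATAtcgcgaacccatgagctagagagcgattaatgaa
ArgRS: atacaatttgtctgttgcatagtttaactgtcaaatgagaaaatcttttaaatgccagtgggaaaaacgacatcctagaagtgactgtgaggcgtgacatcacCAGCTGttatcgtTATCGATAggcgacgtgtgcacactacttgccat
beta-PheRS: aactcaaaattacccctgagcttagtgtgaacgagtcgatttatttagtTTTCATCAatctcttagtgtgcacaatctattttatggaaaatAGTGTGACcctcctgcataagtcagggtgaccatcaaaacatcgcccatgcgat
LeuRS-m: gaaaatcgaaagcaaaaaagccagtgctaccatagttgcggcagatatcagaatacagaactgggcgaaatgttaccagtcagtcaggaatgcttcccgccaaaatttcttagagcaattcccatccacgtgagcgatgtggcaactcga
TrpRS (chr3R:9266905-9267018, minus strand) and AlaRS (chr2L:8381765-8381820, minus strand) hold the same DRE as IleRS and ArgRS, and TyrRS (chr3L:16419303-16419452, minus strand) holds CAGCTG at 2 places, but these 3 genes had no thresholded peak.
TrpRS: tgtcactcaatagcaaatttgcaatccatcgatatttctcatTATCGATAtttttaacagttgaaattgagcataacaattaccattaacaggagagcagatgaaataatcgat
AlaRS: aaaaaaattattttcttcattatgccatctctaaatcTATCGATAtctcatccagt
TyrRS: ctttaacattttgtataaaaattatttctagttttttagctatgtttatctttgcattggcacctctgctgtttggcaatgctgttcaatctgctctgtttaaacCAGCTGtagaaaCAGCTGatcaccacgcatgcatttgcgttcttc

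SerRS, which charges serine tRNA, had the strongest start-site peak of the synthetase genes. The peak (chr2L:3037257-3037504, gene FBgn0031497) had a pooled signal of 407 and ranked 483 among the pooled regions. In replicates 1, 2 and 3 its signal was 7.00, 5.42 and 7.38 times the list median (6.60 ± 1.04, SD, n = 3). The summit fell between the annotated start sites of SerRS, 65 bp upstream of the inner one and 75 bp downstream of the outer one. The divergent gene CG17260 starts 83 bp from the same summit, and 8 bp from the outer SerRS start.

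IleRS, the isoleucyl enzyme, was next, with a signal of 309 and rank 810 (chr3L:22288397-22288647, gene FBgn0027086). Its replicate values were 5.09, 5.25 and 4.61 times the median (4.98 ± 0.334, SD, n = 3), all below the lowest SerRS value and all above those of the other synthetase genes. The summit lay 99 bp upstream of the start, inside the printed promoter, whose DRE begins at base −42 and CAGCTG at base −79. Hem, which encodes a part of the actin-regulating WAVE complex, starts 371 bp from the summit on the other strand.

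GluProRS, the joint glutamyl and prolyl enzyme, had a peak of signal 237 and rank 1266 (chr3R:23958540-23958668, gene FBgn0005674). Its replicates gave 3.59, 3.28 and 4.59 times the median (3.82 ± 0.688, SD, n = 3). The summit lay 236 bp upstream of the nearest GluProRS start but 24 bp from the start of the divergent gene AP-1sigma, which encodes a clathrin adaptor subunit, so the peak stood closer to the neighbour than to the synthetase gene. With each peak given only to the nearest gene, GluProRS no longer counted as bound.

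The subunit genes of the cytoplasmic phenylalanyl enzyme differed. At beta-PheRS the peak had a signal of 204 and rank 1652 (chr3R:24252503-24252926, gene FBgn0039175), and the replicates gave 3.36, 3.14 and 3.11 times the median (3.20 ± 0.138, SD, n = 3), the narrowest spread of the bound synthetase genes. Its summit lay 36 bp upstream of the start, near the motif 1 core at base −54 of the printed promoter, and no other protein-coding gene started within 500 bp of it. At alpha-PheRS no list, pooled or replicate, held a region within 500 bp of a start site. PheRS-m, the single-chain mitochondrial phenylalanyl enzyme, was bound with a signal of 146 and rank 2898 (chr2R:13968014-13968437, gene FBgn0275436). Its replicates gave 2.66, 2.33 and 1.61 times the median (2.20 ± 0.536, SD, n = 3), the last of them outside that replicate's strongest 4055.

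The other 4 bound cytoplasmic genes, for the glutaminyl, threonyl, arginyl and asparaginyl enzymes, had weaker peaks whose replicate values overlapped. GlnRS (chr3R:25265572-25265995, gene FBgn0027090) had a signal of 162 and rank 2463, with 2.72, 1.81 and 3.11 times the median (2.55 ± 0.666, SD, n = 3). ThrRS (chr2L:12103426-12103849, gene FBgn0027081) had a signal of 152 and rank 2687, with 2.64, 2.75 and 1.79 times the median (2.39 ± 0.527, SD, n = 3). Both missed the strongest 4055 of 1 replicate, replicate 2 for GlnRS and replicate 3 for ThrRS. ArgRS (chrX:15844049-15844472, gene FBgn0027093) had a signal of 147 and rank 2864, with 2.55, 1.94 and 2.26 times the median (2.25 ± 0.301, SD, n = 3), below the strongest regions of replicate 2. AsnRS (chr2L:19131799-19132222, gene FBgn0086443) had a signal of 131 and rank 3473, with 1.48, 2.71 and 2.03 times the median (2.07 ± 0.615, SD, n = 3). AsnRS was the weakest bound synthetase gene, beside 119 for the weakest thresholded peak of all, and replicate 1 did not hold it among its strongest regions.

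LeuRS-m, the mitochondrial leucyl enzyme, lay in the same range, with a signal of 157 and rank 2579 (chr3L:4825579-4826002, gene FBgn0027085). Its replicates gave 2.96, 2.31 and 2.08 times the median (2.45 ± 0.454, SD, n = 3), and it was the only mitochondrial gene among the strongest 4055 regions of all 3 replicates. The others in all 3 were SerRS, IleRS, GluProRS and beta-PheRS, and the remaining 5 bound genes were in those of 2 replicates. Dhc64C, the heavy chain of cytoplasmic dynein, starts 104 bp from the LeuRS-m summit on the other strand. The cytoplasmic LeuRS had no thresholded peak.

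**Figure D2:**
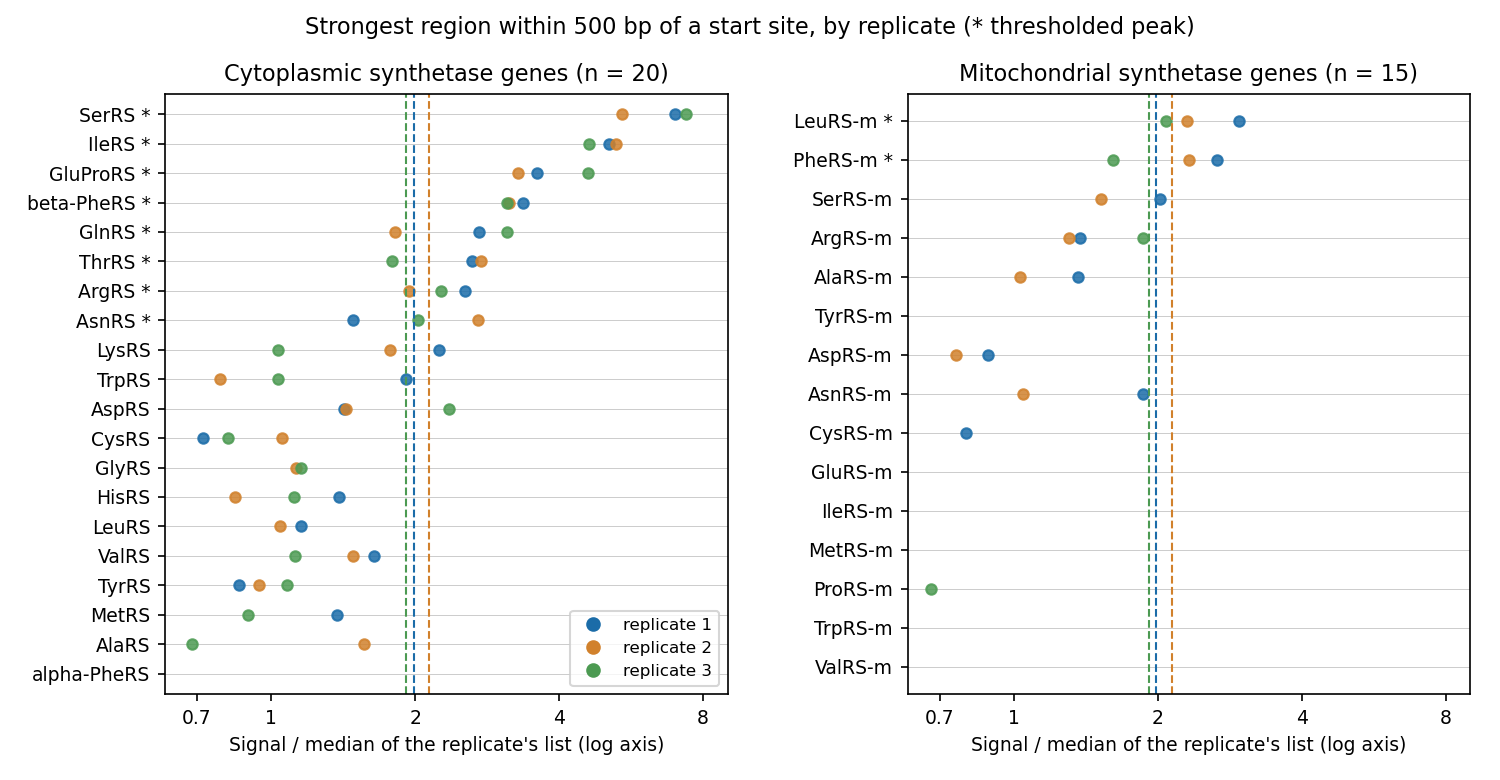
Signal of the strongest region within 500 bp of a start site in each replicate, divided by that replicate's list median (log axis), for every synthetase gene; a missing point means that the replicate listed no region within 500 bp, and dashed lines mark the weakest of each replicate's strongest 4055 regions. SerRS (5.42 to 7.38) and IleRS (4.61 to 5.25) stand above all others in every replicate, and 7 genes have no point.

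As a group the 10 bound genes had a median thresholded signal of 159, beside 191 for the 2577 bound protein-coding genes. The 10 summits lay upstream of the nearest start site of the synthetase gene, at a median offset of −73.5 bp, beside −101 bp for all bound genes, of which 83.4% were upstream. The bound genes' summits in the 3 replicates lay within 9 to 70 bp of each other, with a median spread of 31.5 bp. For the 8 genes without a thresholded peak but with a region in every replicate, the spread was 65 to 746 bp, with a median of 307.5 bp. In 5 of those 8 genes the summits were more than 200 bp apart. A gene counted as bound only where its region ranked within the first 4055 by pooled signal. Bound genes were thus the ones with stronger regions, so the spread and the strength cannot be told apart here. Whether the authors' filter for agreement between replicates had a part in the small spread was not tested. Each replicate's strongest region within 500 bp was taken, so replicate summits of a weak gene can come from different places. The same spread over all protein-coding genes is not given here.

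**Figure D3:**
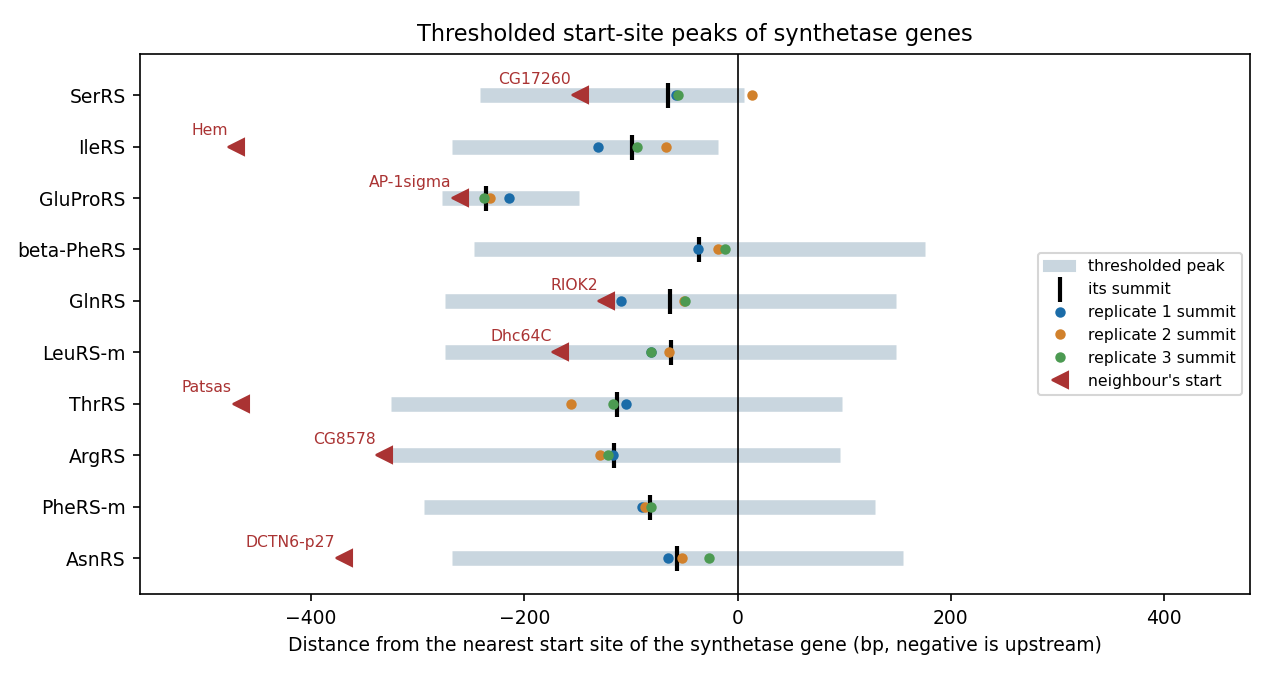
Thresholded peak (bar), its summit (black line) and the replicate summits (points) of the 10 bound synthetase genes, by distance in bp from the nearest start site of the synthetase gene, with triangles at the start of the neighbouring gene. Replicate summits lie within 70 bp of each other at each gene, and the GluProRS summit is beside the AP-1sigma start.

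A further 16 synthetase genes had a relaxed region but no thresholded peak, 11 cytoplasmic and 5 mitochondrial. Their pooled signals ran from 34.0 to 106 with a median of 56.3, and 9 of them exceeded the list median of 52.9. LysRS, the lysyl enzyme, came closest to the threshold with a pooled signal of 106 at rank 4824. Its replicates gave 2.25, 1.77 and 1.03 times the median, so that only replicate 1 held it among the strongest. AspRS, the aspartyl enzyme, had a pooled signal of 79.1 and replicate values of 1.42, 1.43 and 2.36, with summits up to 746 bp apart. TrpRS, the tryptophanyl enzyme, had a pooled signal of 88.1 and replicate values of 1.91, 0.780 and 1.03, with summits up to 500 bp apart. TrpRS was among the strongest of no replicate, and AspRS among those of replicate 3 only. The other cytoplasmic genes in this class were CysRS, GlyRS, HisRS, LeuRS, ValRS, TyrRS, MetRS and AlaRS, whose pooled signals fell from 67.3 at CysRS to 34.0 at AlaRS, near the end of the list at rank 29514.

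The 5 mitochondrial genes with only a relaxed region were SerRS-m (pooled signal 86.7), ArgRS-m (86.6), AlaRS-m (51.7), TyrRS-m (46.7) and AspRS-m (39.5). ArgRS-m was the only one of them with a region in every replicate, at 1.38, 1.30 and 1.87 times the median (1.52 ± 0.306, SD, n = 3). SerRS-m stood at 2.03 and 1.52 in replicates 1 and 2 and was not listed in replicate 3. TyrRS-m was in the pooled list but in no replicate's list. The 9 genes with no pooled region were alpha-PheRS and AsnRS-m, CysRS-m, GluRS-m, IleRS-m, MetRS-m, ProRS-m, TrpRS-m and ValRS-m. AsnRS-m was listed at 1.87 and 1.05 times the median in replicates 1 and 2, CysRS-m at 0.796 in replicate 1 and ProRS-m at 0.672 in replicate 3. The other 6 were listed in no replicate; a region missing from lists of 30000 may have had signal below the weakest listed one.

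HisRS was the only synthetase gene with a thresholded peak inside the gene but not at a start site (chrX:18517426-18517849, signal 132, rank 3438). Its summit lay 2210 bp from the HisRS start in an annotated exon, and the replicates gave 2.11, 2.03 and 1.91 times the median there. At the HisRS start itself the pooled signal was 56.7. The annotation gives HisRS and Bx, which encodes a LIM-only protein, the same outermost start, so values there cannot be assigned to either gene alone.

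Names that differ only by the -m ending paired the genes of 12 amino acids. Among them the cytoplasmic gene alone was bound for 4 (arginine, asparagine, isoleucine and serine) and the mitochondrial gene alone for 1 (leucine). Neither gene was bound for 7, and both were bound for 0 of 12, which allows a share of up to 25% (3 counts of the total). With 18.4% of all genes bound, nothing is read from that 0. Phenylalanine is outside these 12 by its gene names, and there beta-PheRS and PheRS-m were both bound while alpha-PheRS was not. IleRS had the second strongest peak of the set, and no list held a region within 500 bp of an IleRS-m start site. For serine, SerRS was the strongest and SerRS-m had a relaxed region only.

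Most bound synthetase genes shared their peak with another gene's promoter. Of the 10, 8 had another protein-coding start site within 500 bp of the summit of their strongest peak. Among all bound genes the share was 55.0%, counted more widely over any thresholded start-site peak of a gene. At GluProRS and GlnRS the neighbour's start was the nearer one; RIOK2, a kinase gene, starts 60 bp from the GlnRS summit and GlnRS itself 63 bp from it. Patsas starts 353 bp from the ThrRS summit, CG8578 starts 215 bp from the ArgRS summit and DCTN6-p27, a dynactin subunit gene, starts 312 bp from the AsnRS summit. The lists do not tell to which promoter of a pair a peak belongs.

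A divergent neighbour, a gene on the opposite strand that starts within 500 bp upstream, was present at 22 of 35 synthetase genes (62.9%), beside 27.3% of all protein-coding genes. It was present at 15 of 20 cytoplasmic genes (75%) and at 7 of 15 mitochondrial genes (46.7%). Synthetase genes with such a neighbour were bound in 8 of 22 cases (36.4%), and protein-coding genes with one in 35.2%. Synthetase genes without one were bound in 2 of 13 cases (15.4%), and protein-coding genes without one in 12.1%. Within each of these strata the synthetase share thus stood close to that of all genes, while the cytoplasmic genes with a neighbour stood at 7 of 15 (46.7%) and the mitochondrial ones at 1 of 7 (14.3%). Without a neighbour the counts were 1 of 5 (20%) and 1 of 8 (12.5%). Divergent neighbours thus moved with the class of the gene, and their part in the difference between the classes was not tested.

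**Figure D4:**
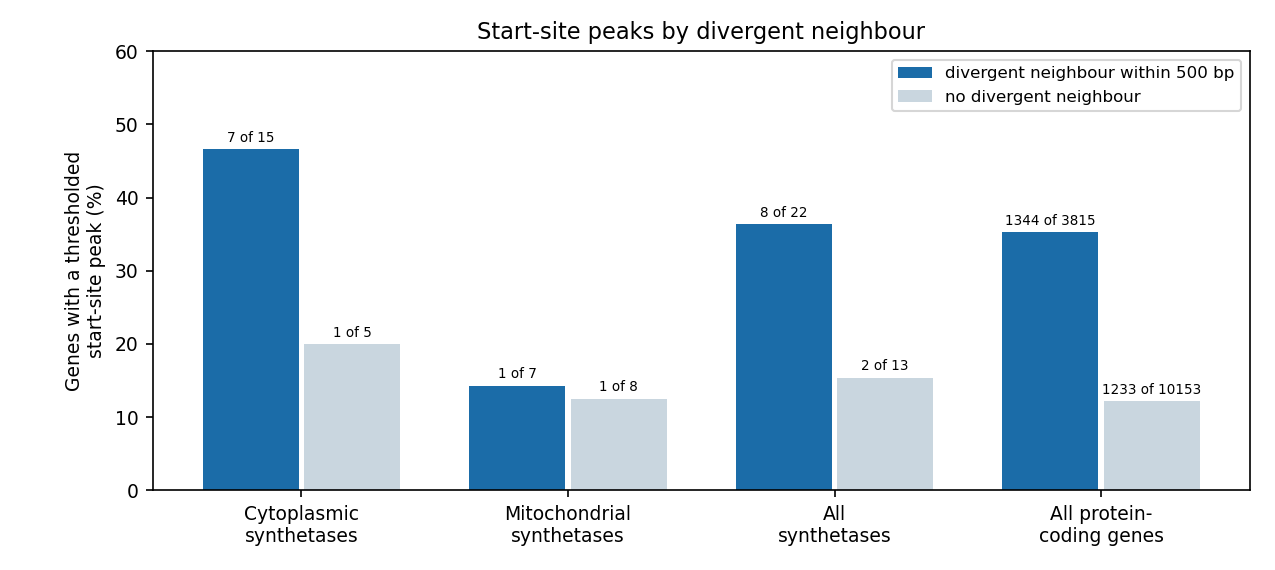
Percent of genes with a thresholded start-site peak (vertical axis), for genes with and without a divergent neighbour within 500 bp; the numbers over the bars are bound genes of all genes in the stratum. All synthetase genes stood at 36.4% with and 15.4% without a neighbour, and all protein-coding genes at 35.2% and 12.1%.

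Promoter letters were compared in the window from 250 bases before to 50 after the outermost start, on both strands. The 6 letters CAGCTG were in 17 of 35 synthetase promoters (48.6%), beside 17.6% of all promoters, in 10 cytoplasmic and 7 mitochondrial genes. They were as common with a peak as without, in 5 of 10 bound and 12 of 25 unbound genes. The motif 1 core GTCACACT was in 6 of 35 (17.1%, all promoters 6.61%), of which GlnRS and beta-PheRS were bound and AsnRS-m, AspRS-m, LeuRS and ProRS-m were not. TATCGATA was in 5 of 35 (14.3%, all promoters 9.36%): IleRS, ArgRS and PheRS-m, which were bound, and TrpRS and AlaRS, which were not. The shorter CGATA, which every TATCGATA contains, was in 65.7% of synthetase promoters and 47.3% of all. TATAAA was in 54.3% (all promoters 45.8%), in 3 of 10 bound and 16 of 25 unbound genes, GAGAG in 17.1% (all promoters 29.7%), and TGATGNAA in 5.71% (all promoters 4.07%). Within 100 bp of the 10 summits, TATCGATA was found at 3 and CAGCTG at 4, beside 9.76% and 15.0% of the 1875 thresholded summits at start sites. A match is letters in a window and does not show that a factor binds there.

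The partners of tRNA charging were compared as a list of 17 genes. Thresholded peaks were at 4 of them (23.5%, Wilson interval 9.56% to 47.3%; replicates 27.5% ± 3.40, SD, n = 3): eEF1gamma, eEF1alpha1, GatA and Gcn2. That share is near the 18.4% of all genes (replicates 18.3% ± 0.538, SD, n = 3), which lies inside the interval. The strongest was at eEF1gamma, a subunit of the elongation complex that reloads the tRNA carrier eEF1alpha with GTP, with a signal of 575 at rank 211 and replicate values of 8.56, 10.3 and 8.52 times the median (9.12 ± 1.00, SD, n = 3). These values are above those of SerRS in every replicate. GatA, a subunit of the mitochondrial amidotransferase that makes glutaminyl-tRNA from glutamyl-tRNA, had a signal of 356 in a peak shared with P5cr, and eEF1alpha1 one of 265. Gcn2, the kinase that senses uncharged tRNA, had a signal of 149 in a peak shared with Ugt35D1. The complex scaffolds AIMP1, AIMP2 and AIMP3, the synthetase paralogue Slimp, GatB, GatC, eEF1alpha2, eEF1beta, eEF1delta, the mitochondrial elongation factors mEFTu1, mEFTu2 and mEFTs, and crc, the fly ATF4, had no thresholded peak.

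Other translation genes set the scale. Of the cytoplasmic ribosomal protein genes 64 of 92 were bound (69.6%; replicates 68.8% ± 2.26, SD, n = 3), of the mitochondrial ones 26 of 73 (35.6%; 30.6% ± 4.40) and of the initiation factor genes 14 of 44 (31.8%; 28.8% ± 5.72). The replicate values of cytoplasmic synthetase genes, 30% to 40%, were below those of cytoplasmic ribosomal protein genes in every replicate. Differences between these lists were given no test.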

How the data were processed

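The data were peak lists from 3 biological replicates of Su(var)3-7-GFP embryo ChIP-seq, which form 1 group. Per the deposited inventory texts, the authors listed relaxed regions for each replicate and for the pooled replicates, each against 1 control file, and took the thresholded peaks from them with the irreproducible discovery rate. Aligner, peak caller, cutoff and software releases were not given in the sources used here. The signal of each region is the value that the authors deposited, on a scale that is not stated, and was used only to rank regions within a list or as a multiple of the list's median. Peaks were called by the authors, so a filter of theirs decides which weak regions are listed. The 5 lists on dm3 were not used here.

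Summits on dm6, 1-based in the text, were set against 19630 protein-coding start sites of Ensembl release 115 (BDGP6.54), and promoter letters were read from the RefSeq genome of the same release. A peak counted for every gene with a start site within 500 bp. Every synthetase gene is accounted for, with full values for those with a thresholded peak. Other genes are named where their start shares such a peak or where they are in the partner list, matched by symbol for 17 of 17. Shares have 95% Wilson intervals, which cover counting only. The test of the classes was an exact sign-flip permutation over replicates. With 1 group there is no comparison between conditions. The set of genes, though defined by name, and the lists, motifs and tests were chosen with earlier results of these data known. Alternatives were other distances, the stronger part of the peaks, nearest gene, start site inside the peak, outermost start and leaving out each replicate. For the thresholded peaks, leaving out a replicate meant keeping those pooled peaks that both other replicates held. As a check of the code, 100% of 2000 simulated summits placed within 500 bp of start sites were recovered by the same 500 bp rule. That outcome was set by the design and says nothing on the assignment of real peaks to genes. Plots were drawn with matplotlib 3.10.9, and values computed in Python 3.11.15 with SciPy 1.17.1, pandas 2.3.3 and NumPy 2.4.6.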

Additional observations from a re-analysis of the deposited data

How the results depend on the processing

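The counts of bound synthetase genes kept within 1.5 times of their values under a distance of 200 bp (9 of 35, 25.7%, all genes 13.9%) or 1000 bp (10, 28.6%, all genes 21.4%), nearest gene only (8, 22.9%, all genes 13.6%), start site inside the peak (8, 22.9%, all genes 12.6%) and the outermost start only (10, 28.6%, all genes 16.5%). The relaxed count of 26 was 20 at 200 bp (57.1%, all genes 38.4%) and 27 at 1000 bp (77.1%, all genes 59.9%). Among the 2027 strongest thresholded peaks, 4 synthetase genes were bound (11.4%, all genes 10.1%), all 4 cytoplasmic and 0 mitochondrial, which allows a mitochondrial share of up to 20%. With as many strongest regions in each replicate, the mean share was 12.4% in place of 26.7% (all genes 10.1%). Both settings hold fewer peaks by construction. The difference between the classes, 26.7 points, was 16.7 with the nearest gene only and 16.7 with the start site inside the peak, since GluProRS and 1 other cytoplasmic gene dropped out of each; the cytoplasmic share was the higher one under every setting tried. Leaving out 1 replicate in turn, with peaks kept only where both other replicates held them (2714 to 2910 of 4055), gave 6 to 7 bound synthetase genes (17.1% to 20%, all genes 13.5% to 13.7%), 5 to 6 cytoplasmic, 1 to 2 mitochondrial and a difference of 11.7 to 23.3 points, lowest without replicate 3; the mean share over replicates was 24.3% to 28.6% (all genes 18.1% to 18.6%). Cytoplasmic genes came to 5 without replicate 1 and without replicate 3, and mitochondrial genes to 1 without replicate 1 and without replicate 2. The share of all synthetase genes stayed above that of all genes under every setting tried. The mitochondrial share did not keep its place beside all genes. It was 13.3% beside 18.4% in the main setting and 13.3% beside 13.9% at 200 bp. With the start site inside the peak it was the higher one, at 13.3% beside 12.6%. With 1 group of samples, no pairing between conditions was possible. The classes of genes were compared within each replicate, and the sign-flip test used those paired differences. Unknown read depth limits what can be said of genes with no listed region, and no untagged control was analysed here.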
